A study of Mus musculus with 3 samples.

Results

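The genes described here are 10 genes of the granules and the death ligand with which cytotoxic lymphocytes kill: Gzmb, Gzmk, Gzmm, Prf1, Nkg7, Ctsw, Cst7, Srgn, Fasl and Serpinb6b. They were chosen by gene symbol, and each was read by 1 probe set that carries no other symbol, among 10191 genes measured in this way. Expression was compared in 3 populations of CD8+ T cells sorted from spleen and lymph nodes of C57BL/6 mice with a green fluorescent protein reporter of CXCR3, a chemokine receptor of effector and memory T cells. They were called CXCR3+ innate, CXCR3- innate and naive, and the mice themselves were naive and kept pathogen-free. Innate is the submitters' word for T cells that they contrast with naive cells. Sorting used antibodies to CD44, CD62L and CD8 per the labels, which do not give the gates. No treatment is given, and the reporter was shared by all 3 populations. Neither sex nor age is given in the sources used here. RNA of the populations came from about 3 to 5 mice, which the labels also call CIBER mice, and whether all populations came from the same animals is not given. Each population was measured on 1 array, so no difference below could be set against a spread between replicates, no test between populations was possible, and words such as higher compare these arrays alone. The number of arrays limits the precision.

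A cytotoxic T cell kills a target mainly by releasing the contents of secretory granules at the point of contact. Perforin, the product of Prf1, opens pores in the target membrane, and granzymes, which are serine proteases, enter the target and cleave proteins that lead to its death. Serglycin, the product of Srgn, is the proteoglycan that packs these proteins in the granule, and serpins and cystatins inside the killer cell restrain its proteases. The Fas ligand, the product of Fasl, kills by a separate route, by binding the death receptor Fas on the target. Naive CD8+ T cells are known to hold little of this machinery and to build it after activation, whereas memory-phenotype CD8+ T cells keep some of it in readiness. At the RNA level, Prf1, Nkg7, Ctsw, Cst7 and Srgn nevertheless read above the median of all genes on the naive array here.

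Values were log2 expression values made with RMA, and differences are differences of these log2 values. The median over all genes was 7.63 on the CXCR3+ innate array, 7.63 on the CXCR3- innate and 7.65 on the naive array. Exactly equal values on all 3 arrays were found in 34.6% of the genes, so an equal value does not show equal expression. The T cell genes Cd3e, Cd3d, Cd3g, Cd8a, Cd8b1, Cd2 and Cd5 were at or above the gene median on every array. Of these 7, 5 read lower in CXCR3- innate cells than on both other arrays. Against naive cells, CXCR3+ innate cells read higher in 2, equal in 1 and lower in 4, with a median of -0.24. CXCR3- innate cells read higher in 0, equal in 1 and lower in 6, with a median of -0.30. Linear sums of the 7 were 10014 on the CXCR3+ innate, 9063 on the CXCR3- innate and 11959 on the naive array. Cd44, the adhesion receptor used in the sort, read 8.30 on the CXCR3+ innate array, 7.88 on the CXCR3- innate and 7.24 on the naive array, and Cxcr3 read 7.97, 7.82 and 7.57 in that order. Of 12 markers of natural killer cells, which use the same granule genes, 3 had values. Ncr1 read 7.19, 7.43 and 7.19, Fcer1g read 7.07, 6.98 and 6.93, and Fcgr3 read 7.71 on each array, in the same order of populations. Summed on the linear scale these 3 markers came to 490.1, 508.8 and 477.3. The other natural killer markers, Klrb1c and Tyrobp among them, were not analysed here. Only probe sets that reach 7 on at least 1 array had values, and Fcer1g was above 7 on the CXCR3+ innate array alone. Of 12 myeloid markers 5 had values, and between the innate populations 3 were lower and 2 equal on the CXCR3+ innate array, with S100a9 at 8.04, 8.31 and 8.09 in that order of populations, which also holds for the values that follow. Of 5 markers of CD4 and regulatory T cells Foxp3 and Ctla4 had values, with Ctla4 at 7.23, 7.76 and 7.51. Of 3 markers of natural killer T cells Zbtb16 and Slamf6 had values. Zbtb16 was at 7.75, 7.75 and 7.67, lowest on the naive array, and Slamf6 at 7.87, 8.21 and 8.36, highest there. Summed on the linear scale, the measured markers came to 941.3, 1019 and 962.2 for myeloid cells, 307.8, 380.3 and 340.2 for CD4 and regulatory T cells, and 449.6, 511.1 and 532.5 for natural killer T cells. Of 5 gamma-delta T cell markers Sox13 had values, at 7.75, 7.79 and 7.75, of 6 mast cell and basophil markers Mcpt8, at 6.98, 7.01 and 6.87, and of 8 B cell markers none. The part of other cell types in the results was not tested.

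Over the 10 genes, CXCR3+ innate cells read higher than both other populations in 7, as they did in 11.2% of all genes, and the 10 genes fell into a few orders over the 3 arrays. Fasl, Serpinb6b, Gzmm and Gzmb descended from CXCR3+ innate over CXCR3- innate to naive cells, an order found in 3.98% of all genes. Ctsw, Nkg7 and Cst7 also read highest in CXCR3+ innate cells but lowest in CXCR3- innate cells, with naive cells between, an order found in 3.24% of all genes. Gzmb is in the table through its CXCR3+ innate value alone, so that it reads highest there follows from the filter of the table, and its place among the 7 shows nothing more. Gzmm at 6.95 and Serpinb6b at 6.91 read below 7 on the naive array. They are in the table through the innate arrays, so naive cells could not read highest in them. Prf1 was equal in CXCR3+ innate and naive cells, Srgn was equal in both innate populations, and Gzmk was equal on all 3 arrays. The genes were sorted into these orders after their values were seen, so the orders are a description. In RNA pooled from sorted cells, fewer cells that express a gene and less of its RNA per cell cannot be told apart.

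**Figure D1:**
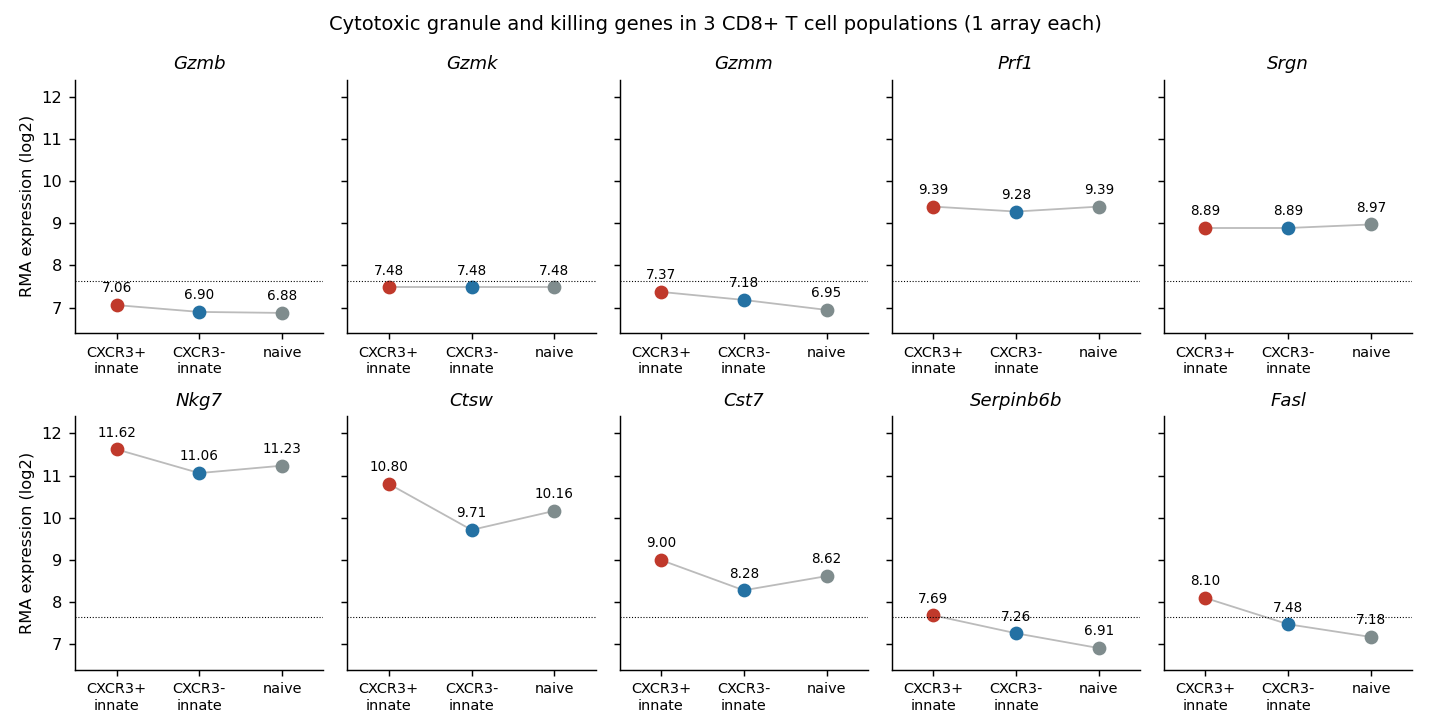
RMA expression (log2, vertical axis) of each of the 10 genes in the CXCR3+ innate, the CXCR3- innate and the naive population, with 1 array and thus 1 point per population and no error bars, and the median of all genes as a dotted line. Fasl, Serpinb6b and Gzmm step down from CXCR3+ innate to naive cells, Ctsw, Nkg7 and Cst7 are lowest in CXCR3- innate cells, and Gzmk is flat at 7.48.

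The sequences just upstream of 4 of these genes are shown because they stand for both orders, Fasl and Serpinb6b for the descending one and Nkg7 and Cst7 for the one that is lowest in CXCR3- innate cells. Each is the run of 250 bases before the gene's start in RefSeq on GRCm38.p6, 5′ to 3′ on the gene's own strand. Capitals mark letters that match a core sequence bound by families of transcription factors known to act on granule genes, searched on both strands: TGTGGT of RUNX factors, GGTGTGA of T-box factors such as T-bet and Eomes, GGAAGT of ETS factors and TTCNNNGAA of STAT factors.
Fasl, chr1:161788496-161788745, minus strand: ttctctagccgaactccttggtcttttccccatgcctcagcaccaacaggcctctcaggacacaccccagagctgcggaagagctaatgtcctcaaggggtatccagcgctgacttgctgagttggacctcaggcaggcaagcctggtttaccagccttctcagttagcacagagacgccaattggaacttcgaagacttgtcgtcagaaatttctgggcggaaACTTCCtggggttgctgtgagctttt
Serpinb6b, chr13:32965011-32965260, plus strand: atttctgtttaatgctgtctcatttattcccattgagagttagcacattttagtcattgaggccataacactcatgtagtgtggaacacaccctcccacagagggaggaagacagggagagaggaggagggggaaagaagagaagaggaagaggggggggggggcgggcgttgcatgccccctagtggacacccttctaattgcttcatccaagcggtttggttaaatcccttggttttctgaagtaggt
Nkg7, chr7:43436888-43437137, plus strand: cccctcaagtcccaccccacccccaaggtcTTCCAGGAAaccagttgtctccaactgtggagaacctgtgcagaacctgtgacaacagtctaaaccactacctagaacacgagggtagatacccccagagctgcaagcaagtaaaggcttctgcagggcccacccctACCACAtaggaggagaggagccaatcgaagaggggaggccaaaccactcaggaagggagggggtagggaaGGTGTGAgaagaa
Cst7, chr2:150570165-150570414, plus strand: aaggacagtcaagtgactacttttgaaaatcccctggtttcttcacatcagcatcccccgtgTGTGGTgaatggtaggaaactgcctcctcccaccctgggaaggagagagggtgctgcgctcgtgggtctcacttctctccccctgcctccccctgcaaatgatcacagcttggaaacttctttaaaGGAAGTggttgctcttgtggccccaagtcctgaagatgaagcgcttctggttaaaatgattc
In these windows Nkg7 held a RUNX match, a T-box match whose first base is 13 bases before the start, and a STAT match. No matches overlapped in the windows shown. Cst7 held a RUNX and an ETS match, Fasl held an ETS match on the opposite strand, and none of these letters were in the window of Serpinb6b. The table held 11 windows for 9 of the 10 genes, with no entry for Ctsw. RUNX letters were present in 6 of the 11 windows, against 14.05% of 32851 windows of all genes. T-box letters were in 3, against 3.33%, ETS letters in 5, against 19.74%, and STAT letters in 2, against 7.02%. Gzmm and Srgn had 2 windows each, and a match of letters is a description of the sequence and shows no binding.

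The granzymes were dim. Gzmb encodes the granzyme that cleaves after aspartate and can activate caspases in a target, and it read 7.06 on the CXCR3+ innate array, 6.90 on the CXCR3- innate and 6.88 on the naive array. Only the value in CXCR3+ innate cells was above 7, and the table holds only probe sets that reach 7 on at least 1 array, so Gzmb had a value here through that array alone. Gzmm, a granzyme that prefers methionine and leucine, read 7.37 on the CXCR3+ innate array, 7.18 on the CXCR3- innate and 6.95 on the naive array. It was thus higher by 0.43 in CXCR3+ innate and by 0.24 in CXCR3- innate than in naive cells. The naive value of Gzmm was below 7, so Gzmm is in the table through the innate arrays. Gzmk, a granzyme that cleaves after basic residues, read 7.48 on every array. All 3 granzymes lay below the gene median on each array, so none could meet the rule used for a difference, which required the higher value to reach that median. Gzma, the other main granzyme of mouse T cells, was not analysed here.

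The pore former and the granule matrix differed little. Prf1 read 9.39 on the CXCR3+ innate array, 9.28 on the CXCR3- innate and 9.39 on the naive array, which puts CXCR3- innate cells 0.12 below both others. That sign depended on the scaling, since CXCR3- innate minus naive was 0.042 after quantile normalization. A further probe set, annotated with both COX2 and Prf1, was left out because it carries 2 symbols. It read 13.11, 13.20 and 13.11 in the same order. Srgn read 8.89 in both innate populations and 8.97 in naive cells, a difference of -0.084 that was 0.014 for CXCR3+ innate and 0.066 for CXCR3- innate cells after quantile normalization.

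Ctsw, Cst7 and Nkg7 read higher on the CXCR3+ innate array than on both others, and lowest on the CXCR3- innate array. Ctsw encodes cathepsin W, a cysteine protease found mainly in CD8+ T and natural killer cells, and it read 10.80 on the CXCR3+ innate array, 9.71 on the CXCR3- innate and 10.16 on the naive array. CXCR3+ innate cells were thus 2.13-fold above CXCR3- innate and 1.56-fold above naive cells, while CXCR3- innate cells differed from naive cells by -0.45. Cst7 encodes cystatin F, an inhibitor of granule cathepsins that activate granzymes. It read 8.998 on the CXCR3+ innate array, 8.28 on the CXCR3- innate and 8.62 on the naive array, 1.64-fold higher in CXCR3+ than in CXCR3- innate cells. Nkg7, a granule membrane protein needed for efficient degranulation, read 11.62 on the CXCR3+ innate array, 11.06 on the CXCR3- innate and 11.23 on the naive array. Its difference was 0.56 between the innate populations, 0.39 in CXCR3+ innate cells relative to naive cells and -0.18 in CXCR3- innate cells relative to naive cells.

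The lower values in CXCR3- innate cells were shared with many bright genes. CXCR3- innate cells read below both other arrays in 4 of the 10 genes, namely Prf1, Nkg7, Ctsw and Cst7, against 20.7% of all genes. Of the 2548 genes with the highest mean level, which include these 4 and Srgn, 41.9% had this order, beside 4 of the 5 members there, and the median of CXCR3- innate minus naive was -0.11. Among the 2557 genes with the lowest mean level, which include Gzmb and Gzmm, the share was 8.56%, and in the 2 groups of genes between it was 12.5% and 19.9%, all 3 with a median of 0.00. After quantile normalization Nkg7 differed by only -0.0079 between CXCR3- innate and naive cells, Ctsw by -0.24 and Cst7 by -0.22. The part of this pattern of bright genes in the values of Ctsw, Nkg7 and Cst7 was not tested otherwise.

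Fasl and Serpinb6b had the largest differences among the 10 genes between CXCR3+ innate and naive cells, and read between the others in CXCR3- innate cells. Fasl read 8.10 on the CXCR3+ innate array, 7.48 on the CXCR3- innate and 7.18 on the naive array, so CXCR3+ innate cells were 1.90-fold and CXCR3- innate cells 1.23-fold above naive cells. Serpinb6b, an intracellular serpin, the class of inhibitors that protects a killer cell from its own serine proteases, read 7.69 on the CXCR3+ innate array, 7.26 on the CXCR3- innate and 6.91 on the naive array. This is 1.71-fold and 1.28-fold above naive cells for CXCR3+ and CXCR3- innate cells. Both genes reached the gene median in CXCR3+ innate cells alone, and the naive value of Serpinb6b was below 7. Both kept these signs under every scaling tried.

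Counted over the 10 genes, CXCR3+ innate cells read higher than naive cells in 7, equal in 2 and lower in 1, against 20.7% higher, 45% equal and 34.2% lower among all 10191 genes. The 7 include Gzmb, whose sign follows from the filter of the table. They also include Gzmm and Serpinb6b, whose naive values were below 7, so that naive cells could not read highest in them. The median difference was 0.38, beside 0.00 over all genes, and the differences ran from -0.084 for Srgn to 0.92 for Fasl. Differences were called by size, at least 1 on the log2 scale (2-fold) with the higher value at or above the gene median of its array. None of the 10 was called, and neither were most genes, since 0.137% of all genes were called higher and 0.0981% lower. At 1.5-fold 3 of the 10 were called higher, Fasl, Serpinb6b and Ctsw, against 0.5% of all genes, and none lower, against 0.697%.

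In CXCR3- innate cells the 10 genes were mixed. Of the 10, 4 read higher than in naive cells, 1 equal and 5 lower, against 21.6%, 42.1% and 36.3% of all genes. Gzmm and Serpinb6b, among the higher genes, read below 7 on the naive array and are in the table through the innate arrays. The median was -0.042, beside 0.00 over all genes, and it was 0.035 after quantile normalization. The values ran from -0.45 for Ctsw to 0.35 for Serpinb6b. No member was called at 2-fold, where 0.0196% of all genes were called higher and 0.226% lower, nor at 1.5-fold, where the shares were 0.0981% and 1.6%. Both comparisons with naive cells use the same naive array, so their values for a gene are not independent.

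Between the innate populations, CXCR3+ innate cells read higher in 8 of the 10 genes and equal in 2, against 28.7% higher, 49% equal and 22.3% lower among all genes. The 8 include Gzmb, whose sign follows from the filter of the table. They also include Prf1, Nkg7, Ctsw and Cst7, which are among the 2548 genes with the highest mean level. Of those genes 41.9% read lower in CXCR3- innate cells than on both other arrays. The median difference was 0.31, beside 0.00 over all genes. Ctsw was called at 2-fold, at 1.09, as were 0.147% of all genes in that direction, and 0.00981% in the other, but its difference was 0.95 after quantile normalization and was then not called. At 1.5-fold Ctsw, Cst7 and Fasl were called higher, against 1% of all genes, and none lower, against 0.0785%. Among single genes, 99.9% had a lower difference than Ctsw, 99.4% a lower one than Cst7 and 99.1% a lower one than Fasl. Gzmb at 0.16, Gzmm at 0.19 and Prf1 at 0.12 were closer to the rest, and Gzmk and Srgn were at 0.00.

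**Figure D2:**
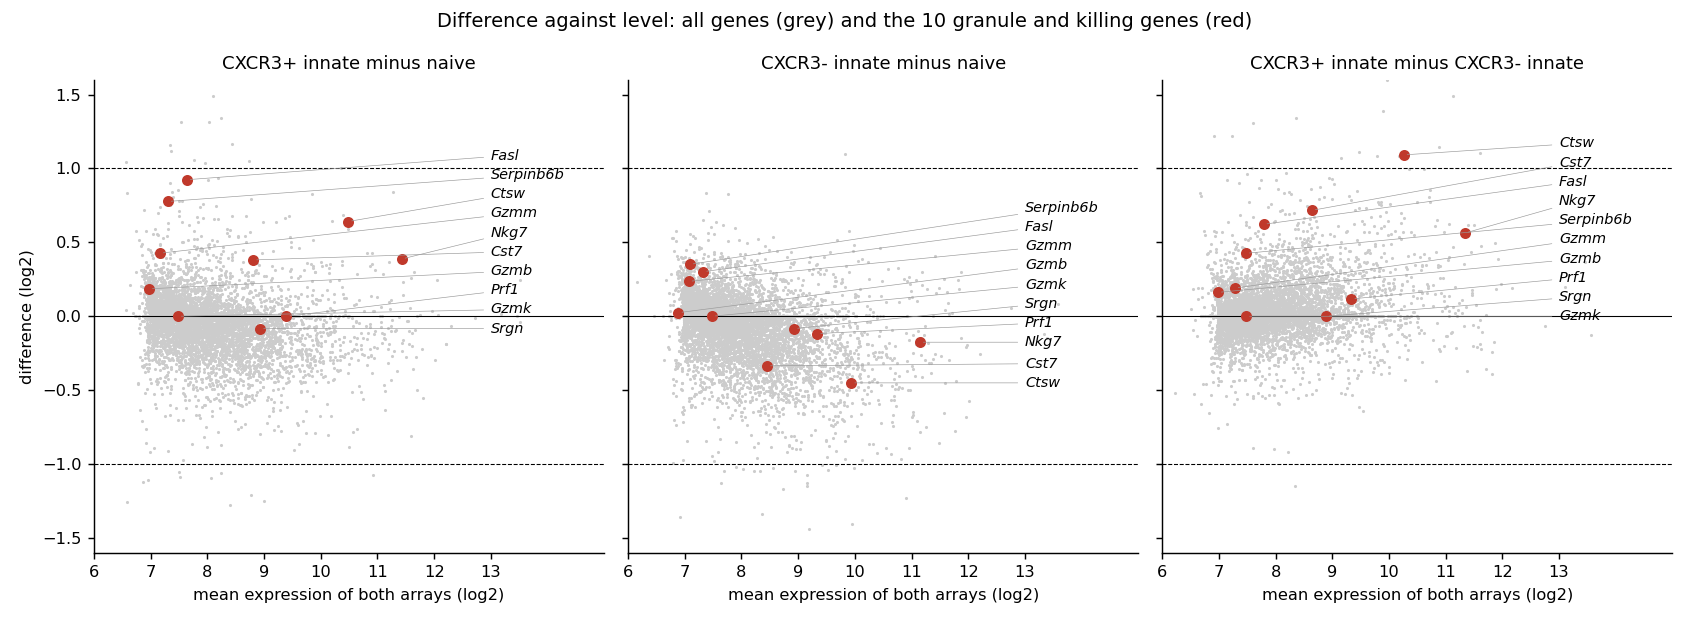
Difference between 2 populations (log2, vertical axis) against the mean expression of both arrays (log2, horizontal axis) for all genes (grey) and the 10 granule and killing genes (red), with dashed lines at a difference of 1 in either direction. Genes beyond the drawn range of differences are not shown, and Ctsw at 1.09 in the comparison of the innate populations is the member beyond a dashed line.

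**Figure D3:**
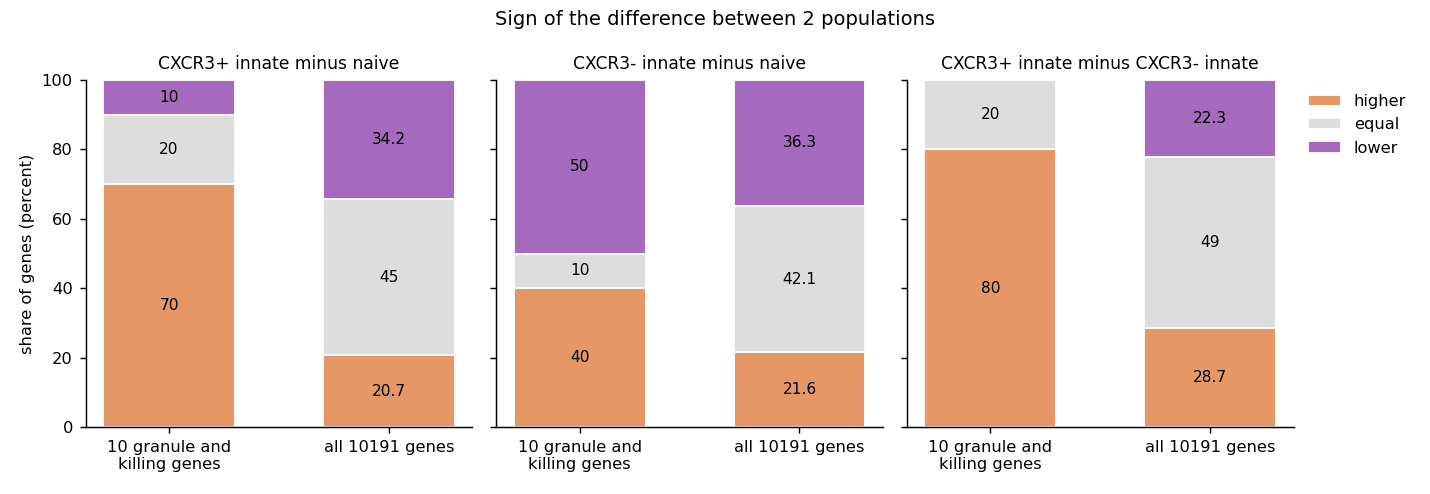
Share of genes (percent, vertical axis) that read higher, equal or lower in the first than in the second population of each comparison, for the 10 granule and killing genes and for all 10191 genes. CXCR3+ innate cells read higher than CXCR3- innate cells in 80% of the 10 genes and in 28.7% of all genes. Gzmb is among the higher genes there and in CXCR3+ innate minus naive, and its sign in both follows from the filter of the table. Gzmm and Serpinb6b, below 7 on the naive array, are in the table through the innate arrays. Of the 2548 genes with the highest mean level, Prf1, Nkg7, Ctsw, Cst7 and Srgn among them, 41.9% read lower in CXCR3- innate cells than on both other arrays.

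The genes with the profiles closest to the 3 members with the widest range were found by Euclidean distance between log2 values centred on their mean over the 3 arrays. For Ctsw these were Hcst, the adaptor of the receptor NKG2D, at a distance of 0.17, Ndufa3, a subunit of respiratory complex I, at 0.21, and F2r, a thrombin receptor, at 0.22. Hcst read 8.13 on the CXCR3+ innate array, 7.27 on the CXCR3- innate and 7.69 on the naive array. For Fasl they were Gem, a small GTP-binding protein, and Lilrb4a, an inhibitory receptor, at 0.086 and 0.087, and Rpa3, a subunit of a protein that binds single-stranded DNA, at 0.14. For Serpinb6b they were Rpa3 at 0.051, Lce1f, a gene of the cornified skin envelope, at 0.070, and Dennd4a at 0.070. Over 3 arrays many genes share a profile, and the distance is a description.

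The rest of the killing machinery was examined through 6 lists of other genes, without the 10. The shares of all genes to set beside the counts of each list follow. In CXCR3+ innate minus naive they were 20.7% above 0, 45% equal and 34.2% below, with 0.137% called higher and 0.0981% lower. In CXCR3- innate minus naive they were 21.6%, 42.1% and 36.3%, with 0.0196% and 0.226% called. Between the innate populations they were 28.7%, 49% and 22.3%, with 0.147% and 0.00981% called. Among 29 other granzymes and lysosomal or granule proteins, 15 had values, and these included no granzyme. None of the 15 was called in any comparison. In CXCR3+ innate minus naive 3 of them were above 0, 6 equal and 6 below, and in CXCR3- innate minus naive 2 were above 0, 3 equal and 10 below, with medians of 0.00 and -0.033. Between the innate populations 8 were above 0, 6 equal and 1 below. Ctsc, encoding the cathepsin that activates granzymes, read 8.23 on the CXCR3+ innate array, 8.08 on the CXCR3- innate and 8.66 on the naive array. Calr, a calcium-binding chaperone also found in granules, read 9.15, 8.66 and 9.32 in that order. Anxa2, a phospholipid-binding protein, differed in the other direction, by 0.74 in CXCR3+ innate and 0.27 in CXCR3- innate cells from naive cells. It read 7.53, 7.06 and 6.79, below the gene median on each array. With a naive value below 7, Anxa2 is in the table through the innate arrays. Ctsd, an aspartic protease of lysosomes, read 8.99, 8.53 and 8.69.

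Of 36 granule transport and exocytosis genes 25 were measured. In CXCR3+ innate minus naive 1 was called higher, against 0.137% of all genes, and no other call was made. Against naive cells, CXCR3+ innate cells read higher in 5, equal in 7 and lower in 13, with a median of -0.011, and CXCR3- innate cells in 3, 7 and 15, with a median of -0.037. Between the innate populations 11 were above 0, 9 equal and 5 below. Plek, encoding the protein kinase C substrate pleckstrin, was the called gene, in CXCR3+ innate minus naive, at 9.02 on the CXCR3+ innate array, 8.35 on the CXCR3- innate and 7.85 on the naive array. Sytl2, a partner of the granule docking protein Rab27a, was at 0.49 and 0.17 in CXCR3+ and CXCR3- innate minus naive. It read 7.41, 7.10 and 6.93 in the order given for Plek, below the gene median on each array. With a naive value below 7, Sytl2 is in the table through the innate arrays. Coro1a, a regulator of actin, was at -0.30 and -0.59, and Was, which drives actin branching, at -0.13 and -0.39. Unc13d at 8.57 and Stx11 at 7.21, which prime and fuse granules, were equal on all 3 arrays, and both are named here after their values were seen.

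A list of 26 genes, made of other serpins and cystatins with the surface proteins Cd59a and Spn, had 12 members measured, which differed by at most 0.25. Spn, the sialoglycoprotein sialophorin and neither a serpin nor a cystatin, is among the 12 and was equal on all 3 arrays. In CXCR3+ innate minus naive 4 were above 0, 4 equal and 4 below, in CXCR3- innate minus naive 6, 5 and 1, and in the comparison of the innate populations 2, 5 and 5. Serpinb9, the inhibitor of granzyme B in mouse lymphocytes, read 8.35 on the CXCR3+ innate array, 8.16 on the CXCR3- innate and 8.15 on the naive array. Serpinb9e was at -0.20, Serpinb9f at -0.14 and Csta1, which read 6.94 on the CXCR3+ innate array, at -0.15 in CXCR3+ innate minus naive. These family members are similar in sequence, and whether their probes tell them apart was not tested.

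Death ligands, receptors and their signalling genes had 20 of 32 members measured, and none was called. CXCR3+ innate cells read higher than naive cells in 6, equal in 7 and lower in 7, and CXCR3- innate cells in 4, 8 and 8, with both medians at 0.00. Between the innate populations 7 were above 0, 9 equal and 4 below. Casp8, the initiator caspase downstream of Fas, read 8.38 on the CXCR3+ innate array, 8.59 on the CXCR3- innate and 8.98 on the naive array, the opposite order to Fasl. Mcl1, which opposes apoptosis, read 8.33 in both innate populations and 8.85 in naive cells, and Cycs, encoding cytochrome c, read 8.57, 8.45 and 8.89. Tnfrsf1b, a receptor for tumour necrosis factor, was at 0.31 in CXCR3+ innate and -0.12 in CXCR3- innate minus naive.

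Among regulators of granule genes some differences exceeded those of the 10 genes themselves. Of 27 transcription factors 20 were measured. In CXCR3+ innate minus naive 2 were called higher, against 0.137% of all genes. There 5 of the 20 were above 0, 4 equal and 11 below, against 20.7%, 45% and 34.2% of all genes, with a median of -0.11. For CXCR3- innate minus naive none was called, 4 were above 0, 5 equal and 11 below, with a median of -0.065. Between the innate populations 8 were above 0, 5 equal and 7 below. Tbx21, which encodes T-bet, read 8.68 on the CXCR3+ innate array, 7.98 on the CXCR3- innate and 7.37 on the naive array. Bhlhe40, a repressor induced in effector T cells, read 7.93, 7.36 and 6.81 in that order, and Eomes, a T-box factor of memory CD8+ T cells, read 7.92, 7.77 and 7.06. Id2, which promotes effector cells, went the other way, at 9.08, 9.04 and 9.99. Of 17 cytokine receptor and kinase genes 13 were measured. In CXCR3+ innate minus naive 2 were called higher and 1 lower, against 0.137% and 0.0981% of all genes. There 7 were above 0, 1 equal and 5 below, and in CXCR3- innate minus naive 3 were above 0, 4 equal and 6 below. Between the innate populations 10 were above 0, 1 equal and 2 below. Il18rap, a subunit of the receptor for interleukin-18, read 8.20, 7.28 and 6.88, and Il18r1 read 8.52, 7.83 and 7.86. The naive values of Bhlhe40 and Il18rap were below 7, so both are in the table through the innate arrays. Il2rb, the chain through which interleukin-15 acts, read 10.85, 9.86 and 9.85, and was called narrowly at 1.003. Ifngr2, a subunit of the receptor for interferon gamma, read 7.76, 8.91 and 9.92. Ifngr2 was called lower in all 3 comparisons, narrowly at -1.01 in CXCR3- innate minus naive.

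**Figure D4:**
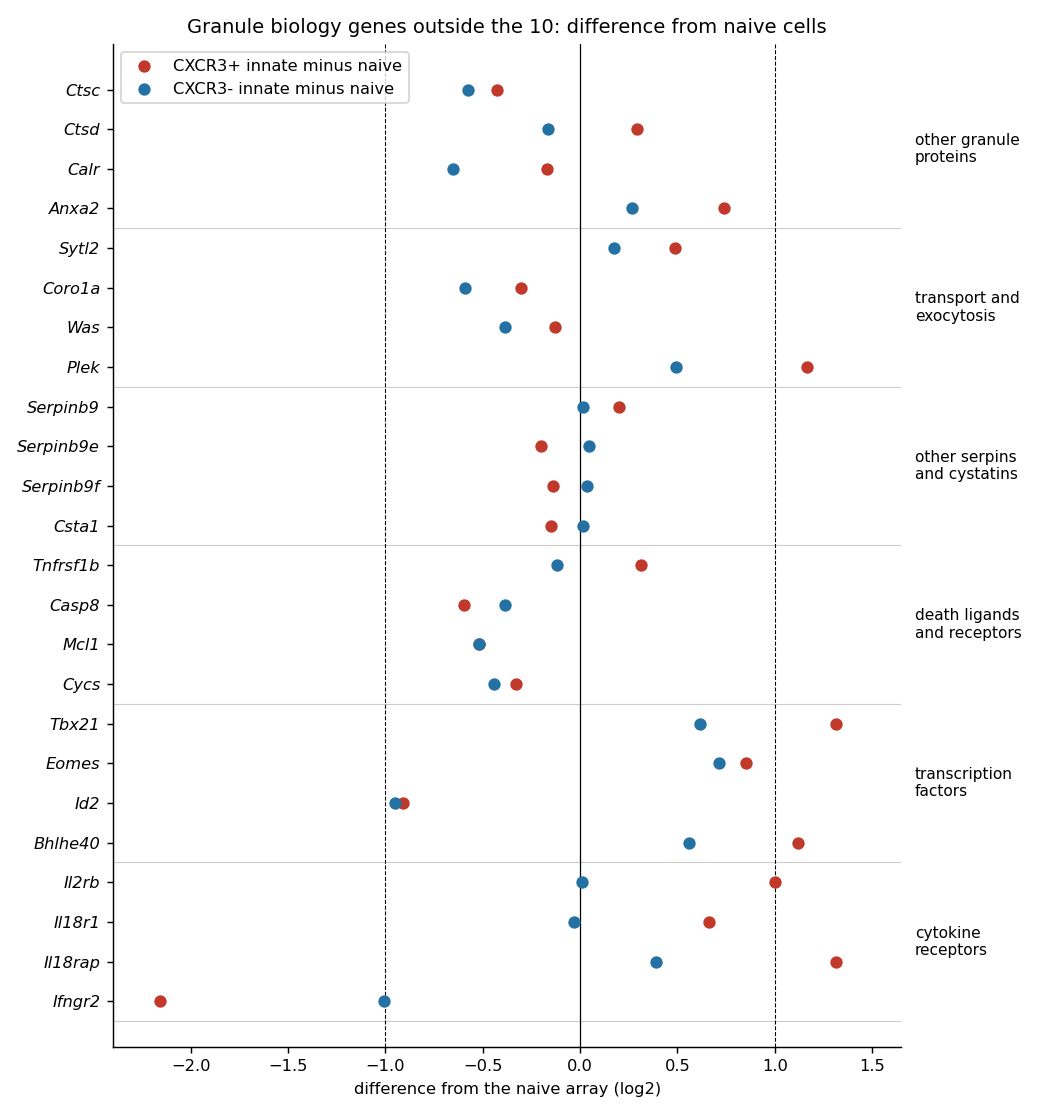
Difference from the naive array (log2, horizontal axis) of genes named from the 6 lists, in CXCR3+ innate cells (red) and CXCR3- innate cells (blue), 1 array each, with dashed lines at a difference of 1 in either direction. Tbx21, Bhlhe40, Il18rap and Plek lie beyond 1 in CXCR3+ innate cells, Il2rb lies at 1.003, and Ifngr2 lies beyond -1 in both. For Mcl1 both points coincide at -0.52. Anxa2, Sytl2, Bhlhe40 and Il18rap read below 7 on the naive array, so they are in the table through the innate arrays.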

How the data were processed

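RNA of 3 sorted CD8+ T cell populations was hybridised to 1 Affymetrix array each. The authors deposited log2 expression values, which per the submitters' processing notes came from the RMA method of Affymetrix Expression Console. Its version and a genome build are not given in the sources used here. RMA normalizes probe values across arrays before summarising them, but the summarised values still differed between arrays among bright genes. The depth of signal over background is unknown. The table held 12417 probe sets, each reaching at least 7.00002 on 1 array. Of these, 10576 carried 1 gene symbol in the platform annotation, and 273 genes with several such probe sets were averaged, which gave 10191 genes. Differences, sizes, orders and distances were computed with Python 3.11.15, numpy 2.4.6 and pandas 2.3.3. A difference was called at 2-fold when the higher value reached its array's gene median. This rule was run on simulated data to check how it was computed, which gives no error rate for these arrays. With 1 array per population there was no test.

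From each list up to 4 genes with the largest absolute difference, and any called gene, were named, as were the 3 nearest profiles of 3 members. The members, lists and rules were chosen with earlier results of these data known. Alternatives were quantile normalization and cyclic loess (limma 3.58.1, R 4.3.3), centring on the median, a linear offset of 16, the brightest probe set, other filters on dim genes and thresholds of 1.5-fold and 3-fold. Sequences came from the RefSeq promoter table of GRCm38.p6.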

Additional observations from a re-analysis of the deposited data

Results flagged for a closer look

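In 3 of the 10 genes both innate populations lay on opposite sides of the naive array. The differences were 0.64 in CXCR3+ innate and -0.45 in CXCR3- innate minus naive for Ctsw, 0.38 and -0.34 for Cst7, and 0.39 and -0.18 for Nkg7. With 1 array per population the opposition was not tested, and both differences share the naive array. After quantile normalization the CXCR3- innate difference of Nkg7 was -0.0079, so the size of its opposition depended on the scaling.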

How the results depend on the processing

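For the 10 genes in 3 comparisons under 5 alternatives, 146 of 150 values kept their sign and their side of the 2-fold rule, or were at or within 0.1 of 0 where the main value was exactly 0. Part of this count was fixed in advance. Each of the 10 genes had 1 probe set, so taking the brightest probe set could change none of these values. A linear offset could not change a sign. Quantile normalization turned Srgn to 0.014 in CXCR3+ innate minus naive and to 0.066 in CXCR3- innate minus naive, and Prf1 to 0.042 in CXCR3- innate minus naive. It also took Ctsw to 0.95 between the innate populations, so that 0 members were called higher there in place of 1. The median of CXCR3- innate minus naive was 0.035 with that scaling and -0.18 over just those members that reach the filter on dim genes. That of the innate populations was 0.56 over just those members. At 1.5-fold 3 members were called higher in CXCR3+ innate minus naive and 3 between the innate populations, and at 3-fold 0 were called between the innate populations. Scaling moved the median of all genes by at most 0.030. No paired analysis was possible because each population had 1 array. No replicate could be left out for the same reason.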
